A study of Mus musculus with 12 samples.

Results

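The miR-200 family in the mouse consists of 5 microRNAs, mmu-miR-200a-3p, mmu-miR-200b-3p, mmu-miR-200c-3p, mmu-miR-141-3p and mmu-miR-429-3p, written below without the species prefix. All 5 were listed in each of 12 small RNA libraries from the prefrontal cortex (PFC), among 1422 miRNAs listed in any library. The members were taken by name as mature miRNAs, and the family was selected on the spread of their levels between the libraries, so these levels and spreads are given as a description and the tests are read from a fit over all miRNAs. The libraries came from adult male C57BL/6 mice in 4 treatment groups with 3 libraries each, and each library was made from RNA pooled from a pair of animals. SS mice received saline, CS mice cocaine with saline, MS mice l-methionine with saline, and MC mice l-methionine with cocaine. Methionine, the precursor of the methyl donor S-adenosylmethionine, was given over 10 days at 1 g/kg by the labels, although the study's text is not uniform on the dose, and all 4 groups went through the conditioned place preference (CPP) procedure, in which a chamber is paired with a drug or with saline. The tissue was dissected 2 h after the CPP test. The study compared CS with SS to follow cocaine, and MS with SS and MC with CS to follow methionine without and with cocaine.

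MicroRNAs guide Argonaute proteins to target mRNAs mainly through their seed, the stretch of bases near the 5′ end that pairs with the target. The miR-200 family is best known in epithelia, where it represses the transcription factors Zeb1 and Zeb2 and so keeps E-cadherin expressed and the cells in the epithelial state. In the nervous system it is known from the olfactory system, where it takes part in the differentiation of olfactory neurons.

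The members are shown here because they fall into 2 seed groups that do not follow their position in the genome. Each mature sequence is written 5′ to 3′ with the seed, bases 2 to 8, in capitals (RefSeq, GRCm38.p6). The first 3 share one seed, which 3 of the 1679 mature mouse miRNAs in the RefSeq table carry, and the last 2 share the other, which 2 of them carry.
miR-200b-3p: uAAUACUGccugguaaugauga
miR-200c-3p: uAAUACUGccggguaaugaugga
miR-429-3p: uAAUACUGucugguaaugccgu
miR-200a-3p: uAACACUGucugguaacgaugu
miR-141-3p: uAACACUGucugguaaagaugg

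Counted from the 5′ end, the seeds differ at 1 base (U4C from miR-200b-3p to miR-200a-3p). Over 22 positions, miR-200b-3p and miR-200c-3p differ at 2 bases, U11G and A22G, and miR-200a-3p and miR-141-3p also differ at 2, C17A and U22G. These are the closest pairs, and in both the members lie on different chromosomes. The other 8 pairs differ at 4 or 5 bases. How reads that match several members were assigned is not given in the sources used here, so values of the close pairs carry that uncertainty.

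The hairpins of Mir200b, Mir200a and Mir429 lie within 1846 bases at chr4:156053905-156055750 on the minus strand (GRCm38), inside introns of Ttll10, a gene on the same strand. In the annotation the hairpin of Mir429 also overlaps an exon of the non-coding transcript Gm13648, and those of Mir200a and Mir200b lie in its intron. Mir200c and Mir141 lie within 477 bases at chr6:124717914-124718390, also on the minus strand, in an intron of Gm15884, and the hairpin of Mir141 also overlaps an exon of Gm29008 on the same strand. The mature miR-200b-3p maps to chr4:156055685-156055706, miR-200a-3p to chr4:156054911-156054932, miR-429-3p to chr4:156053916-156053937, miR-200c-3p to chr6:124718324-124718346 and miR-141-3p to chr6:124717917-124717938.

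The depth of the libraries ran, in units of 1000000 counts, from 7.77 (MC replicate 16) to 11.1 (SS replicate 14), of which 56.1% to 67.9% were on miRNAs. Levels are given as counts per 1000000 of the library total (CPM), a scale on which 3 counts, the floor used here, are worth 0.271 to 0.386 CPM. The brain miRNAs on the marker list were listed in all 12 libraries. The rarest, miR-132-3p, was between 236 and 1316 CPM. miR-124-3p, the abundant neuronal miRNA, was between 30002 (CS replicate 8) and 176336 CPM (SS replicate 13). It was at most 70274 CPM in SS replicate 14, CS replicate 8, MS replicate 4 and all MC libraries, and at least 148929 CPM in the others. Libraries did not stand alike, however. They were clustered on their profiles over 155 families of miRNA precursors, without the precursor of the miR-200 family. The clustering was cut into 3 sets, a number that was set and not found in the data. The sets crossed the treatment groups. CS replicates 8 and 9 went with SS replicate 12 (set A), CS replicate 10 with MC replicates 16 and 17 (set C), and MC replicate 20 with the MS libraries and the remaining SS libraries, replicates 13 and 14 (set B). The median correlation of these profiles was 0.713 over the 21 pairs within a set and -0.644 over the 45 pairs between sets, a property by which the sets were defined. The lowest correlation within a set was 0.451 and the highest between sets 0.410. MC replicate 16 also had the lowest miRNA share (56.1%) and the lowest scaling factor of the trimmed mean of M values (TMM, 0.675, against 0.826 to 1.26 in the others).

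The family as a whole was a minor part of the PFC miRNAs. Its 5 members together held between 0.0105% (MC replicate 16) and 0.162% (CS replicate 10) of the miRNA counts. By mean level miR-429-3p ranked 160 of the 1422 miRNAs, miR-200a-3p 207, miR-200b-3p 231, miR-141-3p 243 and miR-200c-3p 276. The summed level was 123, 109 and 121 CPM in SS replicates 12, 13 and 14. In CS it was 134 in replicate 8, 224 in replicate 9 and 987 in replicate 10. In MS it was 785 in replicate 3, 108 in replicate 4 and 288 in replicate 23, and in MC 58.8 in replicate 16, 219.8 in replicate 17 and 406 in replicate 20. The SS libraries lay within 1.13-fold of each other. The highest library of the other groups exceeded the lowest by 7.34-fold in CS, 7.27-fold in MS and 6.90-fold in MC. As a mean ± SD over 3 libraries the sum was 118 ± 7.59 CPM for SS, 448 ± 469 for CS, 394 ± 351 for MS and 228 ± 174 for MC, so that in CS, MS and MC the spread between libraries was about as large as the mean. The order from highest to lowest mean was CS, MS, MC and SS, and the lowest to highest ranges of neighbouring groups in that order overlapped in every case. CS replicate 10, MS replicate 3, MC replicate 20 and MS replicate 23 were the 4 highest and MC replicate 16 the lowest on the scale of the library total, on that of the miRNA total and on that with TMM factors. Of the 7 libraries between them, SS replicate 14 kept its place and others changed places with the scale.

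miR-429-3p, from the chromosome 4 cluster, was the most abundant member in 11 of the 12 libraries. It was at 54.4, 61.7 and 67.0 CPM in SS replicates 12, 13 and 14, at 54.5, 98.1 and 459 in CS replicates 8, 9 and 10, at 344, 48.9 and 131 in MS replicates 3, 4 and 23, and at 29.9, 87.5 and 67.7 in MC replicates 16, 17 and 20. The highest libraries of CS and MS stood above every other library, while the MC libraries lay on both sides of the SS level.

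miR-200a-3p, its neighbour, which carries the other seed, was second in most libraries. Its level was 38.2, 25.9 and 29.9 CPM in SS replicates 12, 13 and 14, 32.1, 68.2 and 195.7 in CS replicates 8, 9 and 10, 181, 28.4 and 63.1 in MS replicates 3, 4 and 23, and 9.40, 60.2 and 79.4 in MC replicates 16, 17 and 20. CS replicate 8 and MS replicate 4 fell within the range of SS, and MC replicate 16 below it.

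miR-200b-3p, the remaining miRNA of that cluster, was at 18.2, 14.2 and 14.4 CPM in SS replicates 12, 13 and 14. It was at 17.2, 28.7 and 142 in CS replicates 8, 9 and 10, at 109, 15.8 and 40.7 in MS replicates 3, 4 and 23, and at 9.65, 32.1 and 85.4 in MC replicates 16, 17 and 20. Again 1 library of CS and 1 of MS overlapped SS.

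miR-141-3p, from the chromosome 6 cluster, was at 10.1, 6.57 and 7.58 CPM in SS replicates 12, 13 and 14. It reached 11.2, 22.4 and 132 in CS replicates 8, 9 and 10, 107, 9.99 and 39.8 in MS replicates 3, 4 and 23, and 4.51, 29.3 and 47.5 in MC replicates 16, 17 and 20. CS replicate 8 lay just above and MS replicate 4 just under the highest SS library.

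miR-200c-3p, its neighbour in that cluster, was the rarest member in SS, with 2.31, 0.697 and 2.08 CPM in SS replicates 12, 13 and 14. The value of SS replicate 13 rests on 7 counts and has an exact binomial 95% interval of 0.280 to 1.44 CPM, which covers counting error only. It was at 19.4, 6.32 and 58.2 CPM in CS replicates 8, 9 and 10, at 43.5, 4.89 and 13.2 in MS replicates 3, 4 and 23, and at 5.41, 10.7 and 126 in MC replicates 16, 17 and 20. MC replicate 20, not CS replicate 10, was the highest library for this member.

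**Figure D1:**
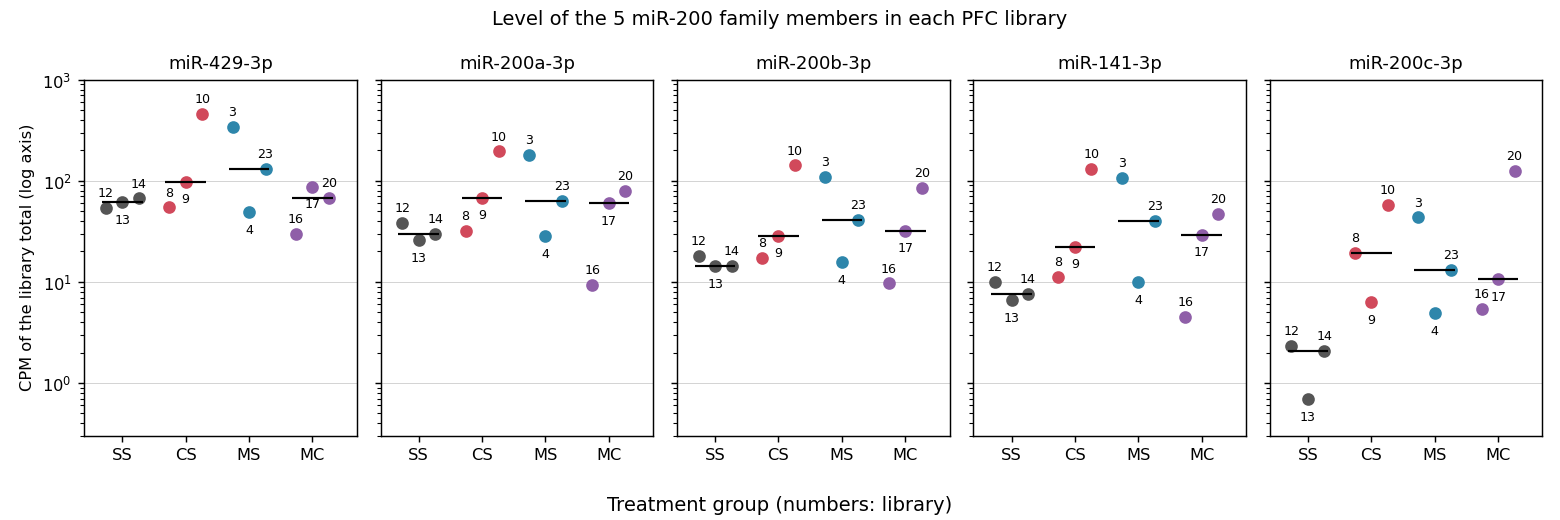
Level of each miR-200 family member (CPM of the library total, log axis) in the 12 PFC libraries by treatment group; points are libraries, numbers their replicate labels and bars the group medians. CS replicate 10 and MS replicate 3 stand highest for miR-429-3p, miR-200a-3p, miR-200b-3p and miR-141-3p, MC replicate 20 for miR-200c-3p, and the SS points lie close together but for miR-200c-3p in SS replicate 13.

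Among the 780 miRNAs with enough counts to be tested (3 or more libraries with 5 or more counts), the family was at the variable end. All 5 members passed this minimum. The SD of the level over the 12 libraries, on the scale log2(CPM + 0.5), was 2.00 for miR-200c-3p, 1.55 for miR-141-3p, 1.26 for miR-200b-3p, 1.21 for miR-200a-3p and 1.15 for miR-429-3p, beside a median of 0.517 over the tested miRNAs. Only 6 miRNAs had a larger SD than miR-200c-3p, and 45 a larger one than miR-429-3p, the least variable member. From the lowest to the highest library the level changed 14.7-fold for miR-200b-3p, 15.4-fold for miR-429-3p, 20.8-fold for miR-200a-3p, 29.3-fold for miR-141-3p and 180.3-fold for miR-200c-3p. The last value was 60.5 without SS replicate 13 and 83.4 without MC replicate 20, and without MC replicate 16 the values were 7.56 for miR-200a-3p and 9.39 for miR-429-3p. This spread was the reason the family was chosen, and it is not a result about treatment.

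miR-429-3p held the largest share of the family in 11 libraries and miR-200c-3p in MC replicate 20. miR-429-3p made up 39.8% to 56.5% of the family counts in the 11 libraries and 16.7% in MC replicate 20. miR-200c-3p made up 0.639% (SS replicate 13) to 14.4% (CS replicate 8) in the 11 and 31.0% in MC replicate 20, a share that varied widely also outside that library. The share of miR-200b-3p was 11.9% to 16.4% in the 11 and 21.0% in MC replicate 20. The shares of miR-200a-3p (16.0% to 31.0%) and miR-141-3p (6.03% to 13.8%) in MC replicate 20, 19.6% and 11.7%, were within the range of the others.

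**Figure D2:**
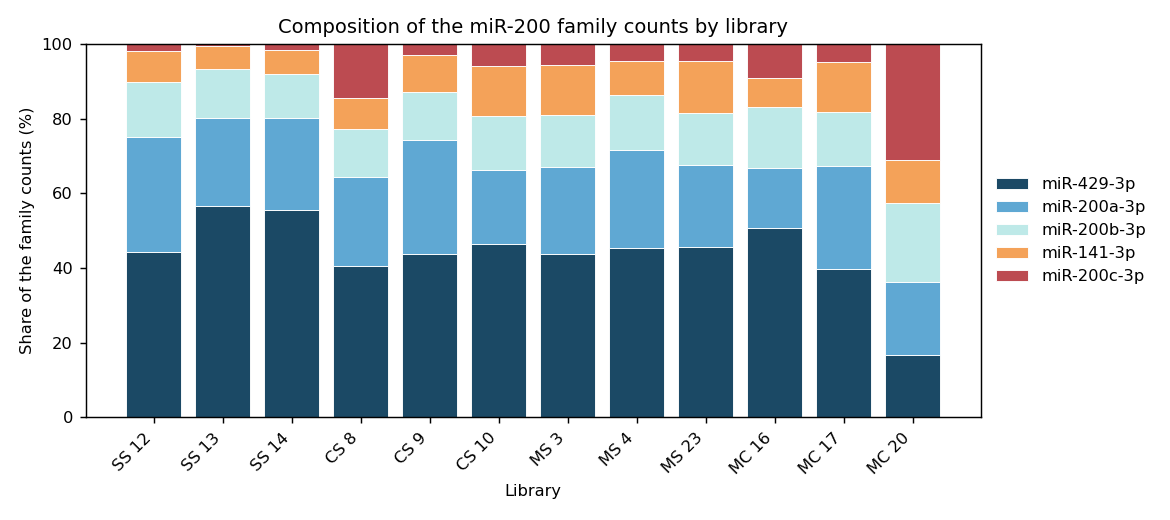
Share of the family counts (%) held by each member in the 12 libraries, stacked to the whole of the family. In 11 libraries miR-429-3p is the widest segment, while in MC replicate 20 miR-200c-3p is, with 31.0% against 16.7% for miR-429-3p.

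The ratio of neighbouring members was not the same for all pairs of a cluster. In the chromosome 4 cluster the ratio of miR-200b-3p to miR-429-3p was 0.214 to 0.367 in 11 libraries and 1.26 in MC replicate 20. The ratio of miR-200b-3p to miR-200a-3p was 0.421 (CS replicate 9) to 1.07 (MC replicate 20), and that of miR-200a-3p to miR-429-3p 0.315 (MC replicate 16) to 1.17 (MC replicate 20). Within the chromosome 6 cluster the ratio of miR-200c-3p to miR-141-3p ran from 0.106 (SS replicate 13) to 2.65 (MC replicate 20), with a median of 0.385, and miR-200c-3p exceeded miR-141-3p in 3 libraries, CS replicate 8, MC replicate 16 and MC replicate 20. miR-200b-3p and miR-141-3p, which come from different chromosomes and carry different seeds, kept a ratio between 1.02 and 2.17, with miR-200b-3p higher in 12 of 12 libraries. The SD of the log2 ratio was 0.415 for this pair, 0.420 for miR-200b-3p with miR-200a-3p, 0.488 for miR-200a-3p with miR-429-3p, 0.637 for miR-200b-3p with miR-429-3p and 1.31 for miR-200c-3p with miR-141-3p. Without MC replicate 20 it was 0.230 for miR-200b-3p with miR-429-3p, 0.348 for miR-200b-3p with miR-200a-3p and 0.367 for miR-200a-3p with miR-429-3p. It was then 0.425 for miR-200b-3p with miR-141-3p, above all pairs of the chromosome 4 cluster, and 1.10 for miR-200c-3p with miR-141-3p. Across the 12 libraries the levels of miR-200b-3p ranked almost alike with those of miR-141-3p (Spearman's rho 0.993, and 0.988 without CS replicate 10 and MS replicate 3) and of miR-200a-3p (0.972, and 0.952 without them). The loosest pair was miR-429-3p with miR-200c-3p (rho 0.587, and 0.394 without these 2 libraries). In the 12 points of each correlation the members share library, depth and, within a cluster, the primary transcript, so these values are a description.

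Where both arms were listed, the counts lay almost wholly on the 3p arms. The 5p arm of miR-200b held 2.34% of the counts of both arms over all libraries and that of miR-200a 1.77%. For miR-200c it was 0.137%, from 4 counts, and for miR-141 0.172%, from 7 counts. The 5p arm of miR-429 was not listed in any of the 12 libraries, beside 14182 counts on the 3p arm, and whether that arm was among the sequences searched is not given in the sources used here. The Rfam family that covers the precursors of these miRNAs (mir-8/mir-141/mir-200) received 1807 further counts, at 5.69 (SS replicate 14) to 42.6 CPM (MS replicate 3). Its level was 4.22% to 14.4% of that of the 5 members and followed their sum over the 12 libraries with a rho of 0.881.

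Cocaine without methionine was addressed by CS against SS. All 5 members had a higher mean in CS, but none passed the test. A miRNA was called when edgeR's quasi-likelihood test, fitted to the 780 miRNAs in 12 libraries, gave an adjusted p (Benjamini-Hochberg) no larger than 0.05 and the level changed by 1 or more on the log2 scale. 0 of the 5 members and 0 of all 780 miRNAs (0%) were called, with 22 miRNAs at an unadjusted p under 0.05 and 0 called by DESeq2. miR-200c-3p had the largest log2 fold change of the family, 3.90 (SE 1.29, 95% interval 1.07 to 6.72, edgeR Benjamini-Hochberg adjusted p = 0.994). miR-141-3p followed with 2.66 (SE 1.07, interval 0.31 to 5.02, edgeR Benjamini-Hochberg adjusted p = 0.994). The log2 fold changes of miR-200b-3p, miR-429-3p and miR-200a-3p were 1.88 (SE 0.936), 1.62 (SE 0.837) and 1.52 (SE 0.837), and their 95% intervals included 0. The median of the members was 1.88, beside 0.03 over all miRNAs tested. Without any overlap between the groups, 12.3% of the tested miRNAs were higher in CS, among them 2 of the 5 members, miR-200c-3p and miR-141-3p, and 0.897% were lower, none of them a member. All 5 values were smaller without CS replicate 10. The log2 fold changes were then 2.49 for miR-200c-3p, 0.72 for miR-141-3p, 0.35 for miR-200a-3p, 0.21 for miR-200b-3p and -0.014 for miR-429-3p.

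Methionine without cocaine was addressed by MS against SS, which shares the SS libraries with the comparison above. The means of all 5 members were higher in MS, and again 0 of the 5 members and 0 of 780 miRNAs (0%) were called by edgeR, with 75 miRNAs at an unadjusted p under 0.05. DESeq2 called 7 miRNAs, none of them a member. The log2 fold change was 3.43 for miR-200c-3p (SE 1.27, interval 0.65 to 6.20, edgeR Benjamini-Hochberg adjusted p = 0.397) and 2.505 for miR-141-3p (SE 1.07, interval 0.16 to 4.85, adjusted p = 0.495). For miR-200b-3p it was 1.63 (SE 0.929), for miR-200a-3p 1.34 (SE 0.834) and for miR-429-3p 1.32 (SE 0.830), with Benjamini-Hochberg adjusted p-values from edgeR between 0.605 and 0.681. The members' median was 1.63, beside -0.03 over all miRNAs tested. miR-200c-3p was the 1 member whose groups did not overlap, with all MS libraries above SS as for 18.7% of the tested miRNAs, and no member was among the 4.1% that lay wholly below SS. All 5 values were smaller without MS replicate 3, which gave 2.23 for miR-200c-3p, 1.44 for miR-141-3p, 0.65 for miR-200b-3p, 0.36 for miR-429-3p and 0.33 for miR-200a-3p.

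Methionine on top of cocaine was addressed by MC against CS, which shares the CS libraries with the first comparison. The means of 4 members were lower in MC and that of miR-200c-3p was higher, with 0 of the 5 members and 0 of 780 miRNAs (0%) called by edgeR, 58 at an unadjusted p under 0.05 and 0 called by DESeq2. The log2 fold change was -1.83 for miR-429-3p (SE 0.843, interval -3.67 to 0.022, edgeR Benjamini-Hochberg adjusted p = 0.577). It was -1.23 for miR-141-3p (SE 1.02), -1.17 for miR-200a-3p (SE 0.829), -0.74 for miR-200b-3p (SE 0.908) and 0.58 for miR-200c-3p (SE 1.12), and their 95% intervals included 0. The members' median was -1.17, beside 0.08 over all miRNAs tested. No member had groups that did not overlap, beside 2.05% of the tested miRNAs lower and 2.95% higher in MC. For 3 members the direction changed with a library left out or with the fit. Without CS replicate 10 the log2 fold changes of miR-200b-3p and miR-141-3p were 0.92 and 0.69, that of miR-200c-3p 1.99, and those of miR-200a-3p and miR-429-3p -0.017 and -0.21. For miR-200c-3p the value was -1.69 without MC replicate 20, and -0.73 over all 12 libraries with library set as a covariate.

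The interaction, the change with cocaine under methionine (MC against MS) less the change without it (CS against SS), was negative for all 5 members and called for none of them. It was -3.74 for miR-141-3p (SE 1.47, interval -6.97 to -0.51), -3.15 for miR-429-3p (SE 1.18, interval -5.74 to -0.56), -2.84 for miR-200c-3p, -2.51 for miR-200a-3p and -2.37 for miR-200b-3p on the log2 scale. The Benjamini-Hochberg adjusted p from edgeR was 0.804 for each of the 5. The members' median was -2.84, beside 0.06 over all miRNAs tested, of which 54.1% had a positive value. Here 0 of 780 miRNAs (0%) were called by edgeR, with 34 at an unadjusted p under 0.05 and 0 by DESeq2. Without CS replicate 10 the 5 values lay between -1.81 and -0.71, and without MS replicate 3 between -2.67 and -1.39. Without MC replicate 20 the value of miR-200c-3p was -5.12.

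**Figure D3:**
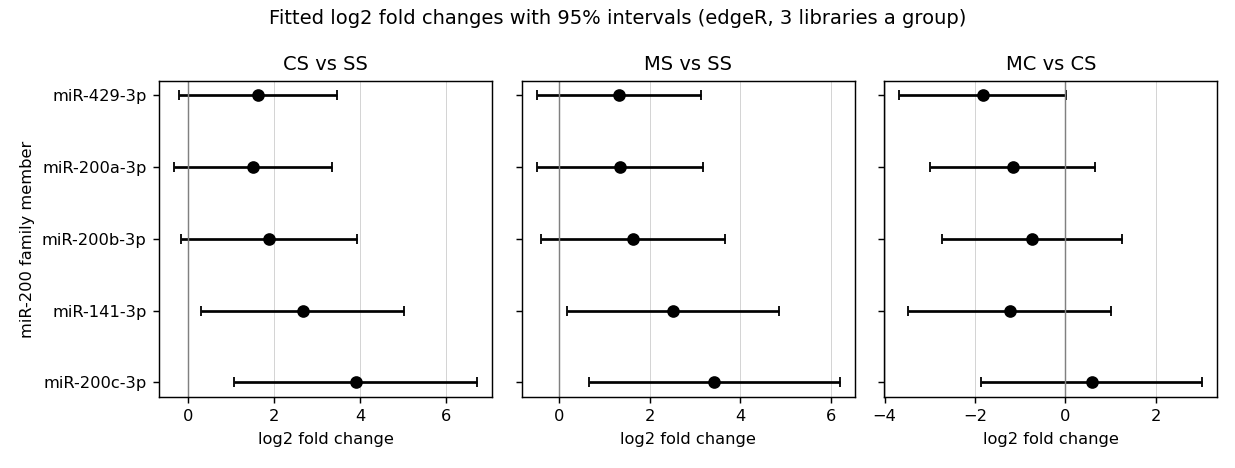
Log2 fold change of each member in CS against SS, MS against SS and MC against CS, from edgeR over 12 libraries, with bars for the 95% interval. Intervals that leave out 0 belong to miR-200c-3p and miR-141-3p in the first 2 comparisons, and no member was called after Benjamini-Hochberg adjustment.

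The library sets allow the comparisons only in part. In set A the mean of CS replicates 8 and 9 exceeded SS replicate 12 by log2 ratios of 0.33 for miR-200b-3p, 0.39 for miR-200a-3p, 0.48 for miR-429-3p, 0.71 for miR-141-3p and 2.25 for miR-200c-3p. In set B the mean of the 3 MS libraries exceeded that of SS replicates 13 and 14 by 1.91, 1.69, 1.44, 2.80 and 3.48 in the same order of members. In set C the log2 ratios of the mean of MC replicates 16 and 17 to CS replicate 10, the library with the highest family level, were -2.74, -2.47, -2.96, -2.93 and -2.78. These ratios rest on few libraries and were not tested on their own. In the edgeR fit over 12 libraries with library set as a covariate, no member was called in any comparison, and the log2 fold changes in MS against SS were 0.96 for miR-200b-3p, 0.97 for miR-200a-3p, 0.90 for miR-429-3p, 1.89 for miR-141-3p and 2.45 for miR-200c-3p. In the same order of members they were 1.72, 1.34, 1.03, 2.16 and 4.58 in CS against SS, and -1.20, -1.45, -2.20, -1.48 and -0.73 in MC against CS, where the last value is of the opposite sign to that without the covariate (0.58).

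The miRNAs whose levels ranked most like the family sum over the 12 libraries were those of the miR-183 cluster, a chromosome 6 cluster known from sensory organs such as the retina, the inner ear and the olfactory epithelium. Spearman's rho was 0.930 for miR-183-5p, 0.867 for miR-96-5p and 0.825 for miR-182-5p, the 3 highest of 739 mature miRNAs, for which the median was 0.056 and the 95th percentile 0.505. These are shown because their seeds differ from both seeds of the miR-200 family.
miR-183-5p: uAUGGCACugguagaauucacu
miR-96-5p: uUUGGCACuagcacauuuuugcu
miR-182-5p: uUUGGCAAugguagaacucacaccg

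They map to chr6:30169711-30169732, chr6:30169506-30169528 and chr6:30165962-30165986 on the minus strand (GRCm38), apart from both miR-200 clusters. The summed level of the 3 was 28.2, 25.0 and 17.2 CPM in SS replicates 12, 13 and 14, 30.8, 49.6 and 219 in CS replicates 8, 9 and 10, 129, 12.3 and 55.5 in MS replicates 3, 4 and 23, and 12.4, 26.2 and 32.9 in MC replicates 16, 17 and 20. All 3 were listed in 12 of 12 libraries and miR-183-5p was the most abundant. CS replicate 10 and MS replicate 3 were the 2 highest libraries for this cluster as for the family. MC replicate 20, the next highest for the family, was at 32.9 CPM, close to the SS libraries. Without CS replicate 10 and MS replicate 3, rho with the family sum was 0.879 for miR-183-5p, 0.782 for miR-96-5p and 0.697 for miR-182-5p. These were then not the 3 highest, as rho was 0.842 for miR-3061-3p, 0.745 for miR-1957a and 0.709 for miR-193a-3p.

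**Figure D4:**
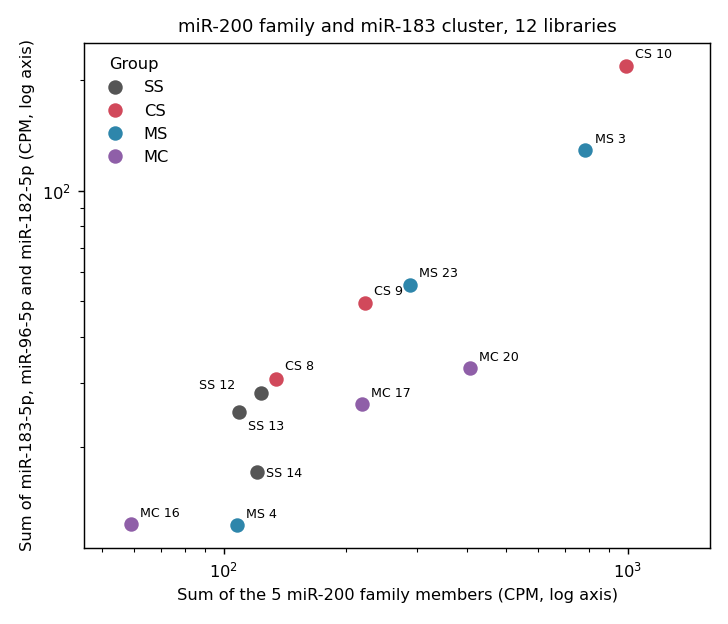
Summed level of miR-183-5p, miR-96-5p and miR-182-5p against the summed level of the 5 miR-200 family members (both in CPM, log axes), 1 point per library, coloured by treatment group. CS replicate 10 and MS replicate 3 lie at the upper right, and MC replicate 20 lies to the right with a miR-183 cluster level of 32.9 CPM.

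The other miRNAs named by likeness were far rarer or less alike. They were miR-32-3p (rho 0.776), miR-3061-3p (0.748), miR-190b-5p (0.706), miR-193a-3p (0.706), miR-183-3p (0.692), miR-340-5p (0.664) and miR-1957a (0.650). Of these, only miR-340-5p was above 4 CPM in any library. At the other end were miR-7687-3p (-0.797), let-7k (-0.734) and miR-351-3p (-0.713). The points of these correlations share their libraries and composition, and MC replicate 16 was the lowest library for the family and for 5 of the 7 named first and the highest for 2 of the 3 named last.

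None of the 3 miRNAs of the miR-183 cluster was called in any comparison by edgeR. In CS against SS the log2 fold change was 2.23 for miR-183-5p (SE 0.911), 1.78 for miR-182-5p (SE 0.827) and 1.17 for miR-96-5p (SE 0.981), each with a Benjamini-Hochberg adjusted p of 0.994. In MS against SS it was 1.53, 0.80 and 1.41 and in MC against CS -2.22, -2.33 and -1.31 in the same order.

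Markers of tissues other than cortex were followed because the family is known from epithelia. In bulk tissue, fewer cells of a type and less RNA per cell cannot be told apart. The epithelial list without the family (miR-205-5p, miR-203-3p, miR-31-5p and miR-375-3p, 4 of 4 tested) was at 571, 322 and 341 CPM in SS replicates 12, 13 and 14, 861, 581 and 383 in CS replicates 8, 9 and 10, 312, 542 and 398 in MS replicates 3, 4 and 23, and 307, 589 and 538 in MC replicates 16, 17 and 20. miR-31-5p, the most abundant, was listed in all 12. The sum ranked with a rho of 0.105 with that of the family, and CS replicate 10 and MS replicate 3 were not high in it. CS replicate 8 was the highest, with miR-205-5p, the miRNA of stratified epithelia, at 20.2 CPM against at most 1.90 elsewhere and miR-203-3p, of the skin, at 209 CPM against at most 76.0. The other markers of the list did not stand apart there, with miR-31-5p at 558 CPM against 487 in CS replicate 9, and miR-375-3p at 74.2 CPM, below MC replicate 16 (135) and MC replicate 20 (120.3). This was the library in which the share of miR-200c-3p in the family was the highest but for MC replicate 20.

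MS replicate 3 stood apart in the gut and liver list. This list (miR-122-5p, miR-192-5p, miR-194-5p and miR-215-5p, 3 of 4 tested) was at 283, 396 and 379 CPM in SS replicates 12, 13 and 14, 511, 366 and 137 in CS replicates 8, 9 and 10, 3800, 601 and 386 in MS replicates 3, 4 and 23, and 213, 206 and 681 in MC replicates 16, 17 and 20. miR-122-5p, the liver miRNA and the most abundant of the list, was at 2494 CPM in MS replicate 3 against at most 173 elsewhere, and miR-192-5p at 1013 against at most 266. miR-194-5p was at 293 CPM there, below CS replicate 8 (347) and MC replicate 20 (299). miR-215-5p was at or near 0 in all libraries, with at most 0.502 CPM. CS replicate 10, the highest library for the family, was the lowest for this list, with miR-194-5p at 11.7 CPM.

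The blood cell list (6 of 6 tested, led by the erythroid miR-451a) was at 2233, 1943 and 1515 CPM in SS replicates 12, 13 and 14, 2415, 2695 and 2422 in CS replicates 8, 9 and 10, 4008, 2719 and 2586 in MS replicates 3, 4 and 23, and 391, 3634 and 3252 in MC replicates 16, 17 and 20. Within it miR-223-3p, the miRNA of neutrophils and other myeloid cells, was at 166 CPM in MC replicate 20 against at most 16.4 elsewhere. The other leukocyte miRNAs of the list were not highest there, with miR-142a-3p at 20.9 CPM against 25.2 in MC replicate 17, and miR-142a-5p at 8.34 against 9.66. MC replicate 16 was the lowest library for the list. All CS and MS libraries, and MC replicates 17 and 20, lay above all SS libraries in it. The rho of the list with the family sum was 0.608. The part of these markers in the family's levels was not tested.

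For the gut and liver list the highest library exceeded the lowest by 27.7-fold, for the blood cell list by 10.2-fold, for the miR-183 cluster by 17.8-fold, and for the other lists by 2.53-fold (neurons and brain) to 6.70-fold (oligodendrocytes). In the gut and liver list and the blood cell list single libraries stood apart. MS replicate 3 was at 3800 CPM in the gut and liver list, against at most 681 elsewhere. MC replicate 16 was at 391 CPM in the blood cell list, against at least 1515 elsewhere. In the miR-183 cluster CS replicate 10 was at 219 CPM and the next library, MS replicate 3, at 129, with MS replicate 4 the lowest at 12.3. The choroid plexus list (3 of 6 tested, with miR-448-3p, miR-1264-3p and miR-1912-3p at a median under 3 counts) was led by miR-204-5p and summed to 690 (MC replicate 16) to 2519 CPM (MS replicate 3), with a rho of 0.336 with the family sum. The ciliated cell list (4 of 5 tested) summed to 26.6 (MC replicate 16) to 83.1 CPM (MS replicate 3), with a rho of 0.497. The endothelial list, miR-126a-3p and miR-126a-5p, summed to 2972 (MC replicate 16) to 9877 CPM (MS replicate 4), the muscle list (3 of 3 tested) to 27.0 (SS replicate 13) to 87.4 CPM (MS replicate 4), and the oligodendrocyte list, miR-219a-2-3p and miR-338-3p, to 152 (SS replicate 14) to 1016 CPM (CS replicate 9). Their rho with the family sum was 0.308, -0.119 and -0.231, beside 0.608 for the blood cell list and 0.063 for the gut and liver list. The list of neurons and brain (7 of 7 tested) summed to 108294 (MC replicate 16) to 274091 CPM (SS replicate 13), with a rho of 0.329.

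**Figure D5:**
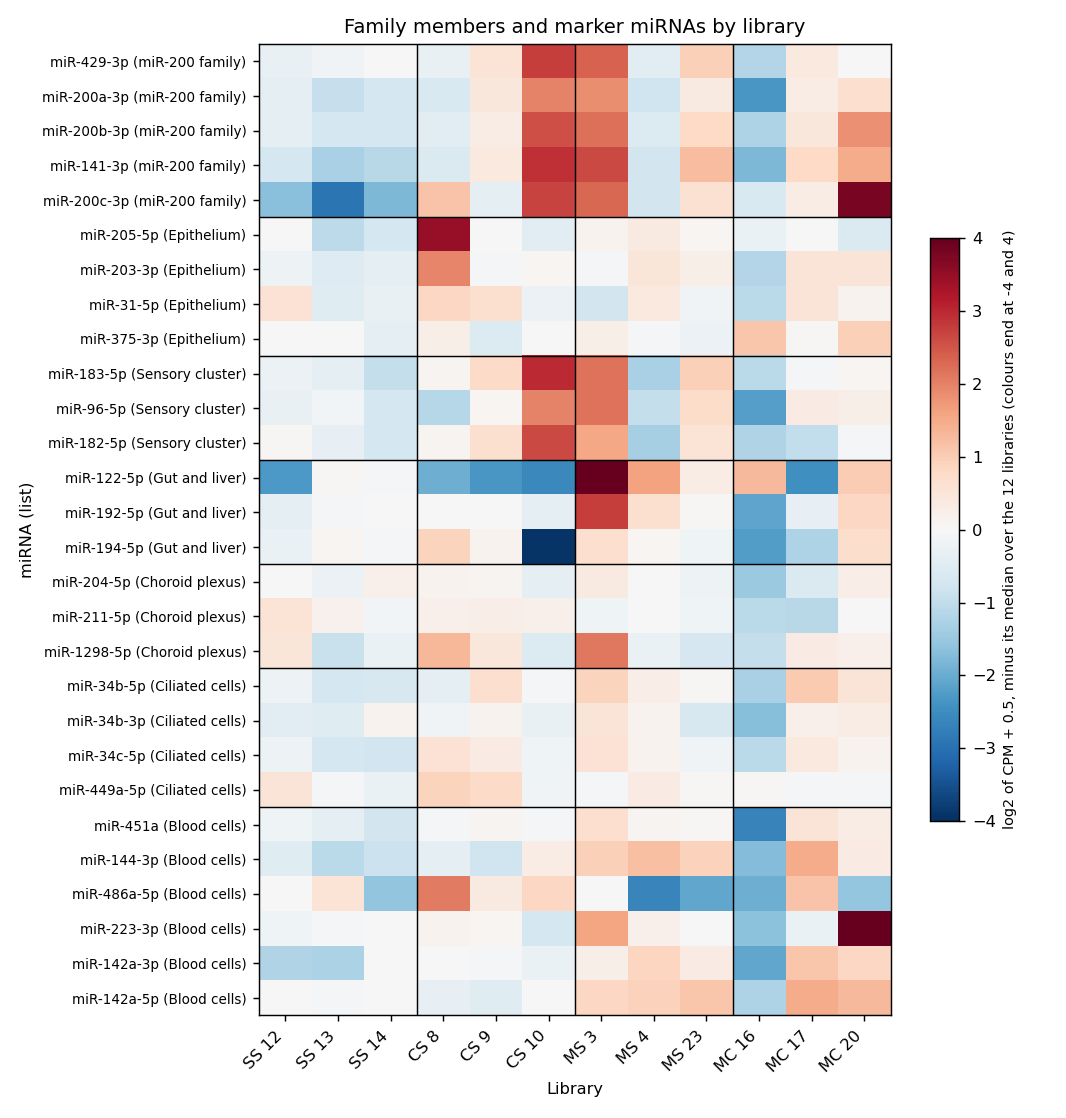
Level of the miR-200 family and of marker miRNAs in each of the 12 libraries, as the log2 ratio to the median library of each miRNA (colour scale). CS replicate 10 and MS replicate 3 are high for the family and the miR-183 cluster, and single cells of the map stand out for miR-122-5p in MS replicate 3, miR-223-3p in MC replicate 20 and miR-205-5p in CS replicate 8.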

How the data were processed

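The authors deposited, for each of the 12 PFC libraries, unnormalized read counts of the small RNAs and a second column of TPM values, which scale each count to the total. Dividing count by total gave back TPM within 0.005 in every library, so only the counts were used here. According to the methods, reads were filtered for quality, adapters and length and mapped with AASRA, and the submitters' processing notes name Bowtie and mm10. Versions and the treatment of reads with several matches are not given in the sources used here. Each library had a file of its own, with 0 columns of other samples.

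Groups were taken from the sample labels. Nothing in the labels names a batch, and no pair of the 12 libraries agreed within sampling noise (smallest chi-square per degree of freedom 210.6 over 66 pairs). The 780 of 1422 mature and predicted miRNAs that had 5 or more counts in 3 or more libraries were tested by quasi-likelihood in edgeR 4.0.16 (R 4.3.3), with group as the only term, the total of the library as its size and TMM factors from the miRNAs, with Benjamini-Hochberg adjustment over all 780. The median SE of a log2 fold change was 0.485 in CS against SS. DESeq2 1.42.0 was an alternative, beside other scalings and filters, library set as a covariate, a fit over 6 libraries, no limit on the fold change, and each library left out in turn. Levels were computed in pandas 2.3.3, rank correlations in scipy 1.17.1 and figures in matplotlib 3.10.9 (Python 3.11.15, numpy 2.4.6), and the fit was tested on simulated data. Sequences are from RefSeq (8 of 8 miRNAs searched were matched), and genes at the loci from the annotation of GRCm38, to which mm10 corresponds.

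The members, the marker lists and the tests were chosen with earlier results of these data known. Named miRNAs are the 5 members, their 5p arms and precursor family, the marker lists, and the 10 mature miRNAs with the highest and the 3 with the lowest Spearman's rho with the family sum. The Poisson interval of a single library and the floors cover counting error only, while the 95% intervals of fold changes come from the edgeR SE and include the spread between libraries. Animals were pooled within a library, so that p-values measure the spread between pools.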

Additional observations from a re-analysis of the deposited data

How the results depend on the processing

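No member of the family was called under any alternative run, and 295 of 300 fold changes of members kept their direction. The number of miRNAs called in MS against SS was 7 with DESeq2 (5 higher, 2 lower) and 3 in a fit over the 6 libraries of the comparison, against 0 with edgeR over 12 libraries, and the other 58 of 60 counts were 0, those with a library left out included. The log2 fold changes that turned were those of miR-429-3p in CS against SS without CS replicate 10 (-0.014), of miR-200b-3p (0.92) and miR-141-3p (0.69) in MC against CS without CS replicate 10, and of miR-200c-3p in MC against CS without MC replicate 20 (-1.69) and with library set as a covariate (-0.73). With each library left out in turn, these values ran from -0.014 to 2.10 for miR-429-3p in CS against SS, and in MC against CS from -1.61 to 0.92 for miR-200b-3p, from -1.83 to 0.69 for miR-141-3p and from -1.69 to 1.99 for miR-200c-3p. Over all alternatives the adjusted p of miR-200c-3p ran from 0.256 to 1 in CS against SS and from 0.0721 to 0.775 in MS against SS. With the library total and no TMM factors the median log2 fold change over all miRNAs shifted by 0.27 in CS against SS, 0.25 in MS against SS and -0.33 in the interaction, and with TMM factors over all small RNAs by 0.11 in MS against SS and -0.15 in the interaction. The directions of the 5 members stayed the same under both. Levels with TMM factors were added after seeing the data. The 100 group means compared included those with a library left out. A mean of 3 libraries cannot move by 1 SD of the same 3 when 1 is dropped, so that part was fixed in advance. It does not measure how far the means depend on single libraries. Of the means on another scale, 7 moved by more than 1 SD, all on the scale of the miRNA total or with TMM factors. Of these, 6 were on the scale of the miRNA total. This total is smaller than the library total, so each level on that scale is higher by construction. With 3 libraries a group, SE of the members' log2 fold changes between 0.830 and 1.29 in the comparisons with SS limit what can be called. No paired analysis was possible because no replicate number is shared between groups.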
